A study of Mus musculus with 6 samples.

Results

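The Zhx family is a small group of nuclear proteins built around homeodomains. It comprises Zhx1, Zhx2 and Zhx3, each with a pair of C2H2 zinc fingers followed by several homeodomains, and Homez, which carries homeodomains and leucine zipper-like stretches but no such fingers. The members were taken by symbol, matched through the NCBI gene number of each table row, which gave 4 of the 18614 genes and 11 of the 61481 transcript rows of the deposited table. All 4 genes passed the filter on low counts, as did 9 of the 11 transcript rows.

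RNA was taken from the SVZ, the subventricular zone, where neural stem cells lie beside the lateral ventricle, of Zhx2Δ/Δ mice (3 libraries, labelled KO) and Zhx2+/+ mice (3 libraries, labelled WT). The genotype tags of the KO-labelled libraries name different genes: ZHX2 KO for KO 1, ZHX3 KO for KO 2 and ZHX4 KO for KO 3, while the title of each names ZHX2. The gene number in the tag goes up with the library number, and the extraction protocol names no genotype other than Zhx2Δ/Δ and Zhx2+/+. These tags may therefore be an entry error, which was not tested, and all 3 libraries were grouped by title. Age, sex, strain, the exons removed, any Cre driver and whether each library came from its own animal are not stated in the labels. The p-values below therefore rest on library-to-library spread, part or all of which may be technical. Libraries were sequenced as 50-base read pairs and held between 17037152 and 17685906 estimated counts.

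Zhx proteins form dimers with each other and act mostly as transcriptional repressors. ZHX1 binds NF-YA, the DNA-contacting subunit of the CCAAT-box factor NF-Y. In mouse liver Zhx2 silences Afp, H19 and Gpc3 after birth. In mouse cortical progenitors ZHX2 binds the cytoplasmic tail of ephrin-B1, and in human kidney cancer cells the ubiquitin ligase VHL marks hydroxylated ZHX2 for degradation.

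The coding sequence of the family members lies almost wholly in a single large exon. Exons are given for the annotated transcripts that GENCODE links to the table's rows, whose lengths can differ from those behind the deposited FPKM (NM_009572.4, 4764 annotated bases against 5141 implied by its counts and FPKM). In the GENCODE M21 annotation of GRCm38, the assembly of mm10, the Zhx2 transcript linked to the row NM_199449.2 has 4 exons on the plus strand of chromosome 15, and exon 3 (chr15:57821032-57823751) holds all 2508 coding bases. Zhx1 lies on the minus strand of the same chromosome, with its 2619 coding bases in the exon at chr15:58052224-58055082. Zhx3 is on the minus strand of chromosome 2, where the exon at chr2:160779401-160782379 holds 2845 coding bases and the last exon the remaining 8. The 1554 coding bases of Homez lie in its last exon on the minus strand of chromosome 14 (chr14:54853787-54858281 in the transcript linked to NM_001177705.1).

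Each read pair can be given to a single family member only if the members differ in sequence, so the coding stretches of the zinc fingers, where Zhx1, Zhx2 and Zhx3 align without gaps, are shown. They come from the GENCODE M21 transcripts (GRCm38), 5′ to 3′ on the coding strand, with the cysteine and histidine codons that hold the zinc ion in capitals.
Zhx2 finger 1, chr15:57821474-57821539, plus strand: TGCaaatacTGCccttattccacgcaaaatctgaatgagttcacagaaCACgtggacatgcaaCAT
Zhx1 finger 1, chr15:58054570-58054635, minus strand: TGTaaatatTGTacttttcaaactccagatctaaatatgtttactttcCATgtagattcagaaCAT
Zhx3 finger 1, chr2:160781946-160782011, minus strand: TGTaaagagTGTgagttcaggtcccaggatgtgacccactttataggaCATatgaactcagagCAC
Zhx2 finger 2, chr15:57821570-57821635, plus strand: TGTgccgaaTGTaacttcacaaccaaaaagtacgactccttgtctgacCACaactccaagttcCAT
Zhx1 finger 2, chr15:58054474-58054539, minus strand: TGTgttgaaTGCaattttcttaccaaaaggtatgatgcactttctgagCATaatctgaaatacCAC
Zhx3 finger 2, chr2:160781850-160781915, minus strand: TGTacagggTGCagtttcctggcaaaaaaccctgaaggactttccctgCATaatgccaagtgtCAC

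All 6 stretches are 66 bases long with the same spacing of cysteine and histidine codons. Zhx2 and Zhx1 had 40 of 66 identical bases in the first finger (60.6%) and 42 in the second (63.6%), and Zhx2 and Zhx3 had 33 (50.0%) and 34 (51.5%). The longest unbroken identical run between any pair was 7 bases. Over all annotated transcripts of the 4 genes, no run of 50 bases occurred in more than 1 member. None of the 4382 different 50-base runs of Zhx2 occurred in any other annotated gene on either strand, so no annotated gene holds the sequence of an error-free 50-base Zhx2 read. Of the 6076 runs of Zhx1, 543 also occurred in the gene model Gm29394. Of the 13208 runs of Zhx3, 211 occurred in other genes, most often on the opposite strand in Plcg1 (155 runs). Of the 5902 runs of Homez, 191 occurred on the opposite strand in Rnf212b.

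Zhx2, the gene named by the deletion, was detected at full depth in every KO-labelled library and lay above every WT library. Its level in CPM, counts scaled to library size by edgeR's trimmed mean of M-values, was 67.1, 57.8 and 56.3 in KO 1 to 3, against 39.8, 40.5 and 38.2 in WT 1 to 3. The groups did not overlap, and the lowest KO-labelled library stood further above the highest WT library than the WT libraries stood apart from each other. Zhx2 averaged 60.4 ± 5.84 CPM in KO-labelled and 39.5 ± 1.17 CPM in WT libraries (SD, n = 3 each), a 1.53-fold difference. The transcript level of the gene named by the deletion was thus higher, not lower, in the libraries labelled KO. Whether the deletion would lower this level cannot be told, since the exons removed are not stated. Every direction below is that of the libraries labelled KO. The table gives counts per transcript and not per exon, so it cannot show whether reads from the coding exon were present.

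By edgeR's quasi-likelihood test Zhx2 had a log2 fold change of 0.61 (SE 0.10). It missed the threshold, an adjusted p of 0.05 by the Benjamini-Hochberg method over 15126 genes (adjusted p = 0.163). That fit called 0 of 4 members, and 0% of all 15126 genes. At an unadjusted edgeR p under 0.05 stood 1 of 4 members, Zhx2, against 9.07% of all genes. By unadjusted p, Zhx2 ranked 59th of all genes tested and 2nd of those that were higher in KO-labelled libraries. DESeq2 called Zhx2 (log2 fold change 0.60, SE 0.14, adjusted p = 0.00142) and no other member, where it called 2.06% of all genes, and 0.0397% (6 genes) as higher in KO-labelled libraries. Limma-voom called 0 genes. Groups lay apart with KO-labelled above WT for 1 of 4 members and for 8% of all genes. The exact two-sided permutation p over libraries was 0.1, the smallest that 3 against 3 allows.

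The direction of Zhx2 did not rest on a single library. With each library left out in turn, edgeR gave log2 fold changes between 0.53 (without KO 1) and 0.66 (without KO 3). With KO 1, the library whose tag and title both name ZHX2, alone against WT, the log2 fold change was 0.77 (SE 0.12, edgeR adjusted p = 0.827), with that single library assumed to vary like the WT libraries. Over 16 alternatives, the adjusted p of Zhx2 ran from 0.00142 to 0.827.

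**Figure D1:**
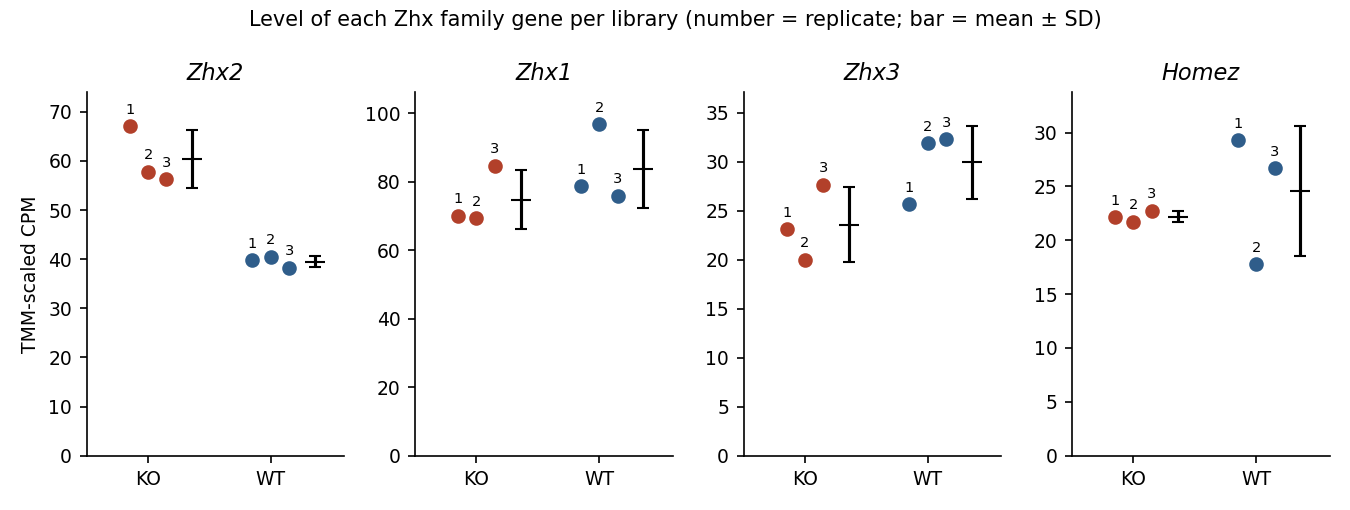
TMM-scaled CPM (y axis, from 0) of each member in the 3 KO-labelled and 3 WT libraries (x axis), with the replicate number beside each point and the mean ± SD as a bar. Zhx2 is the only panel in which the KO-labelled libraries, at 56.3 CPM and above, all lie above the WT libraries, at 40.5 CPM and below.

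Zhx1, the founding member and a dimer partner of Zhx2, was at 70.0, 69.4 and 84.7 CPM in KO 1 to 3, against 78.6, 96.8 and 75.9 CPM in WT 1 to 3. The groups overlapped, KO 3 lying above WT 1 and WT 3. The means were 74.7 ± 8.64 CPM in KO-labelled and 83.8 ± 11.4 CPM in WT libraries (SD, n = 3 each), and the difference did not pass (edgeR log2 fold change -0.17, SE 0.14, adjusted p = 0.752; exact permutation p = 0.3).

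Zhx3, a further repressor that dimerises with Zhx1, was at 23.1, 19.98 and 27.7 CPM in KO 1 to 3, against 25.7, 31.9 and 32.3 CPM in WT 1 to 3. WT 1 lay below KO 3, so the groups overlapped. KO 2 had the lowest level, with 347 counts, beside 392 in KO 1 and 471 in KO 3. The genotype tag of KO 2 names ZHX3, and nothing is read from its level here given the doubt over the tags. The means were 23.6 ± 3.86 CPM in KO-labelled and 29.9 ± 3.72 CPM in WT libraries (SD, n = 3 each), with an edgeR log2 fold change of -0.34 (SE 0.16, adjusted p = 0.583; exact permutation p = 0.2). Without KO 2 it was -0.24, and without KO 3 -0.48.

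Homez, the member without zinc fingers, was nearly constant among KO-labelled libraries and varied among WT libraries. It was at 22.1, 21.7 and 22.7 CPM in KO 1 to 3, against 29.3, 17.8 and 26.7 CPM in WT 1 to 3. All 3 KO-labelled libraries lay inside the WT range. The coefficient of variation was 2.28% in KO-labelled and 24.6% in WT libraries, and edgeR gave a log2 fold change of -0.15 (SE 0.19, adjusted p = 0.842). It was -0.35 without WT 2 and -0.0021 without WT 1. The annotated Homez transcript of NM_001177705.1 shares 237 exonic bases with Rnf212b on the opposite strand, and the labels do not say whether the counting used strand, so reads of the pair may not have been told apart.

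**Figure D2:**
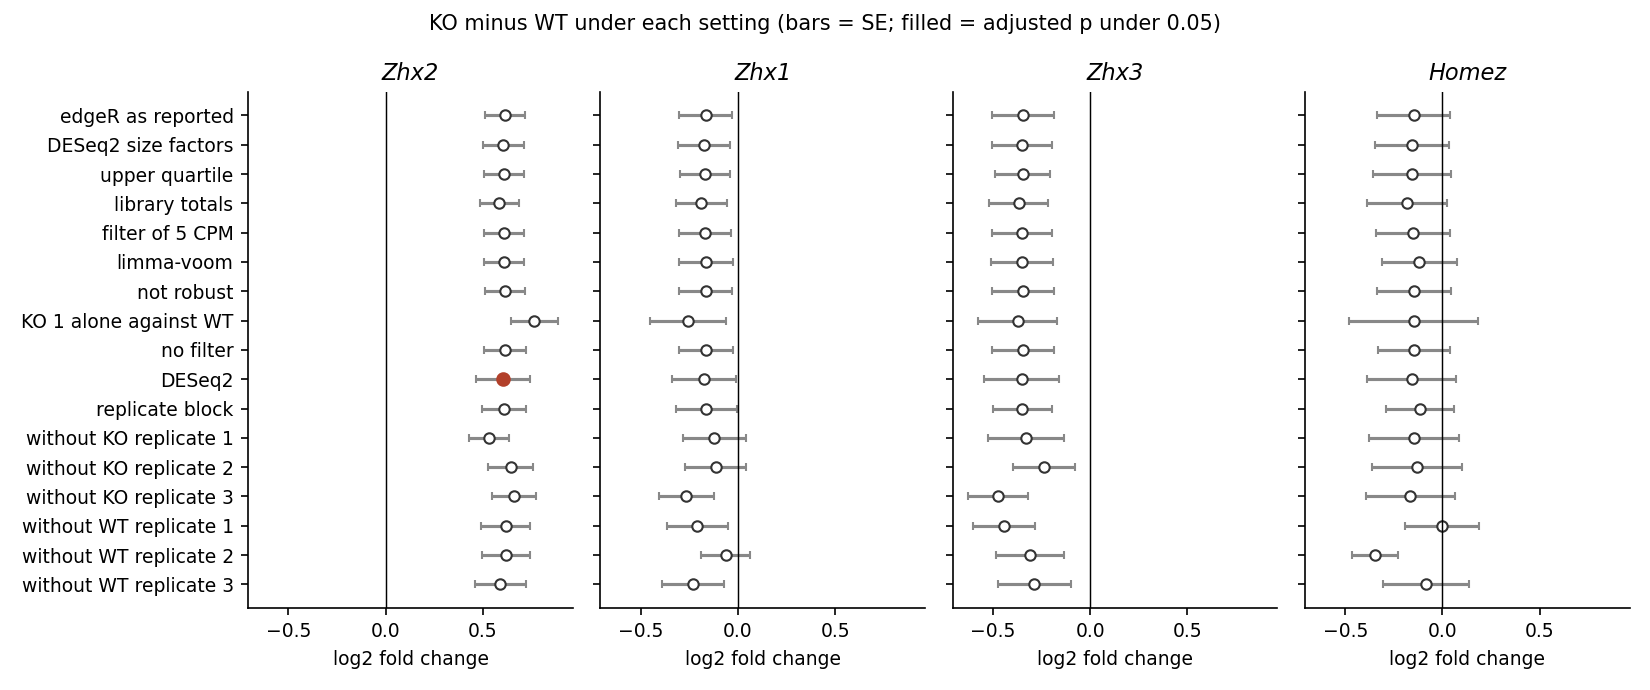
Log2 fold change, KO-labelled minus WT (x axis), of each member under the reported edgeR fit and 16 alternatives (y axis), with SE bars and filled points where the adjusted p is under 0.05. Zhx2 stays between 0.53 and 0.77 and is called by DESeq2 alone, while Zhx1, Zhx3 and Homez stay at or below 0 with no call.

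Levels can be compared between genes only per length, for which the authors' FPKM values, summed over the transcripts of a gene, were used. In FPKM, Zhx2 was at 14.8, 13.1 and 12.8 in KO 1 to 3 and at 9.45, 8.98 and 8.82 in WT 1 to 3. Zhx1 was at 13.2, 13.5 and 16.4 FPKM in KO 1 to 3 and at 15.9, 18.4 and 14.8 FPKM in WT 1 to 3. Zhx1 was thus the highest member in 5 of 6 libraries, and Zhx2 in KO 1. Zhx3 (4.44 to 6.11 FPKM in KO-labelled and 5.94 to 7.20 FPKM in WT libraries) and Homez (5.65 to 6.29 FPKM in KO-labelled and 4.69 to 8.06 FPKM in WT libraries) were the lowest members in every library. Homez stood above Zhx3 in all 3 KO-labelled libraries and in WT 1, and Zhx3 above Homez in WT 2 and WT 3, so the order of the lowest pair was not fixed.

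The family as a whole was at 39.1 ± 2.21 FPKM in KO-labelled and 38.7 ± 0.802 FPKM in WT libraries (SD, n = 3 each; exact permutation p = 0.9), while its makeup differed. Zhx2 held 38.3%, 35.3% and 30.7% of the family's FPKM in KO 1 to 3, against 24.0%, 23.0% and 23.3% in WT 1 to 3. Zhx3 held 12.9%, 11.9% and 14.7% in KO 1 to 3, against 15.1%, 17.8% and 19.03% in WT 1 to 3. For each of these shares the groups did not overlap (exact permutation p = 0.1, the smallest possible). How often such shares lie apart in other gene sets was not computed. The FPKM of Zhx3 itself overlapped between groups, at 6.11 in KO 3 and 5.94 in WT 1. Zhx1 held 36.6 ± 2.63% in KO-labelled and 42.3 ± 4.27% in WT libraries (exact permutation p = 0.2, n = 3 each). Homez held 15.4 ± 0.936% in KO-labelled and 16.98 ± 4.40% in WT libraries (exact permutation p = 0.6, n = 3 each). These shares sum to 100%, so a larger share of one member leaves less for the others.

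A ratio within a library does not depend on how libraries are scaled to each other. Zhx2 had 0.582, 0.520 and 0.417 counts per count of Zhx1, Zhx3 and Homez together in KO 1 to 3, against 0.298, 0.277 and 0.283 in WT 1 to 3. Every KO-labelled ratio was above every WT ratio, and KO 1 to 3 spread more widely than WT 1 to 3. The difference in mean log2 ratio was 0.81 (exact permutation p = 0.1, the smallest possible), and leaving out single libraries gave 0.70 to 0.95. It was 0.77 with Zhx1 alone as denominator.

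The deposited table splits Zhx2 over 3 RefSeq transcripts, all of which are estimated shares of the same overlapping reads. NM_199449.2 carried most counts in every library: 1106.10, 971.06 and 959.00 in KO 1 to 3, against 656.30, 629.14 and 451.30 in WT 1 to 3. The groups did not overlap, where KO-labelled lay above WT in 6.55% of the 38616 transcript rows tested. In edgeR its log2 fold change was 0.83 (SE 0.18), which missed the threshold over all transcripts (adjusted p = 0.423). EdgeR called 0% of them, with 4.99% at an unadjusted p under 0.05. DESeq2 called this row (log2 fold change 0.82, SE 0.21, adjusted p = 0.00674), where it called 2.27% of transcripts. Its log2 fold change was larger than that of the gene, and WT libraries gave a larger part of their Zhx2 counts to the other rows.

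XM_011245689.2, a predicted Zhx2 transcript, had 0 counts in all 3 KO-labelled libraries, against 49.14, 0 and 183.55 in WT 1 to 3. WT 2 was therefore like the KO-labelled libraries in this row. The 0 of 1139 Zhx2 counts in KO 1 allow a share of up to 0.263%, the 0 of 1004 in KO 2 up to 0.299% and the 0 of 959 in KO 3 up to 0.313%, for counting error only. The row did not pass the filter on low counts and was not tested. XM_011245688.2 had 32.90, 32.94 and 0 counts in KO 1 to 3, against 29.56, 45.86 and 24.15 in WT 1 to 3. In KO 3 every Zhx2 count was given to NM_199449.2.

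As a share of the gene's counts, NM_199449.2 held 97.1%, 96.7% and 100% in KO 1 to 3, against 89.3%, 93.2% and 68.5% in WT 1 to 3. The 95% Wilson intervals ran from 95.4% to 100% over the KO-labelled libraries. They were 86.8% to 91.3% in WT 1, 91.0% to 94.9% in WT 2 and 64.8% to 71.9% in WT 3. The mean shares were 97.9 ± 1.79% in KO-labelled and 83.7 ± 13.3% in WT libraries (SD, n = 3 each; exact permutation p = 0.1), a difference of 14.3 percentage points. Without WT 3, the library that held most of XM_011245689.2, the difference was 6.69 points. The intervals cover counting error and not the error of the split itself, which the table does not give.

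**Figure D3:**
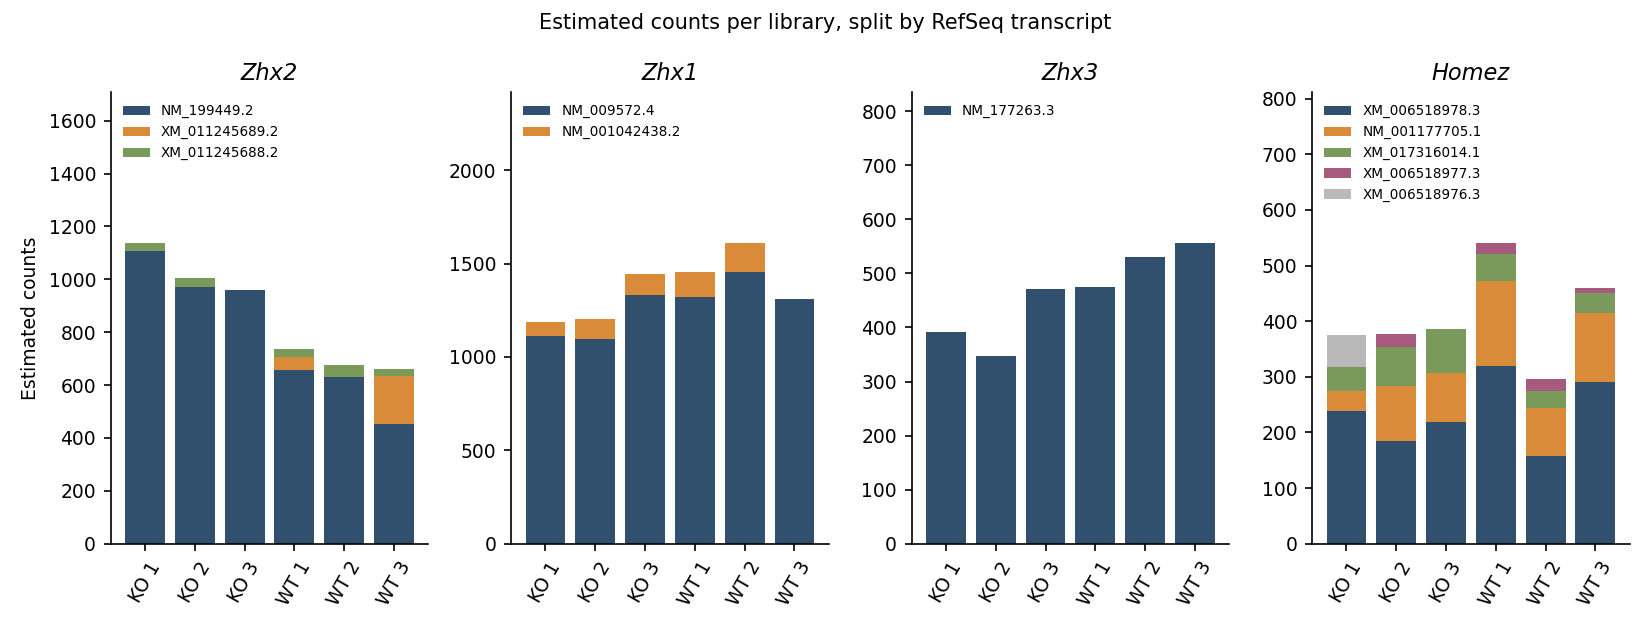
Estimated counts (y axis, from 0) in each KO-labelled and WT library (x axis), stacked by RefSeq transcript for each member. Zhx2 has more counts in every KO-labelled library, and its orange part, XM_011245689.2, is visible in WT 1 and WT 3 only.

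Zhx1 was split over 2 rows. NM_009572.4 had 1112.11, 1097.14 and 1334.52 counts in KO 1 to 3, against 1323.51, 1456.73 and 1309.00 in WT 1 to 3. NM_001042438.2 had 76.89, 107.86 and 107.48 counts in KO 1 to 3, against 129.49, 156.27 and 0 in WT 1 to 3. WT 3 was the only library without it, and 0 of its 1309 Zhx1 counts allow a share of up to 0.229%. The annotated forms of these rows have the same coding exon and differ by a 126-base noncoding exon at chr15:58064055-58064180 and in their outer ends. The leading share was 92.4 ± 1.25% in KO-labelled and 93.8 ± 5.38% in WT libraries (SD, n = 3 each; exact permutation p = 0.9). Neither row passed in edgeR (NM_009572.4, log2 fold change -0.19, SE 0.13; NM_001042438.2, 0.05, SE 1.61).

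Zhx3 had the single row NM_177263.3, so that its transcript and gene counts were the same. GENCODE lists longer forms of Zhx3 whose 3′ ends run into exons of Plcg1, with 379 shared exonic bases on opposite strands. The annotated transcript of NM_177263.3 shares none of them.

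Homez was spread over 5 rows and had the least settled split. XM_006518978.3 led with 238.85, 184.02 and 218.42 counts in KO 1 to 3, against 319.08, 157.43 and 290.81 in WT 1 to 3. Its share of Homez was 56.3 ± 7.40% in KO-labelled and 58.5 ± 5.04% in WT libraries (SD, n = 3 each; exact permutation p = 0.8). NM_001177705.1 held 9.57%, 26.4% and 22.7% of the gene in KO 1 to 3, against 28.3%, 29.0% and 27.0% in WT 1 to 3. XM_017316014.1 went the other way, with 11.3%, 18.5% and 20.8% in KO 1 to 3, against 8.91%, 10.4% and 7.97% in WT 1 to 3. In each of these last rows the shares did not overlap between groups (exact permutation p = 0.1). Their 95% Wilson intervals did overlap, so counting error alone spans the gap between the nearest libraries. For NM_001177705.1 they were 22.3% to 31.2% in KO 2 and 23.1% to 31.2% in WT 3. For XM_017316014.1 they were 8.37% to 14.8% in KO 1 and 7.48% to 14.5% in WT 2. Over the family, 8 tested rows belonged to a gene with several rows, and 2 of them had every KO-labelled share above every WT share (NM_199449.2 and XM_017316014.1), as did 6.84% of the 34395 such rows of all genes. Another 2 lay below (XM_011245688.2 and NM_001177705.1), as did 7.5% of all such rows. The 95% Wilson intervals of XM_011245688.2 overlapped too, at 2.35% to 4.58% in KO 2 and 2.46% to 5.36% in WT 3. Shares of 1 gene sum to 100%, so these rows are not independent of each other. In edgeR the counts of NM_001177705.1 (log2 fold change -0.67, SE 0.51) and XM_017316014.1 (0.75, SE 0.51) did not pass. XM_006518976.3 had 58.68 counts in KO 1 and 0 in the other 5 libraries.

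The members differed in whether their counts, summed over transcripts, were whole numbers. For Zhx2, Zhx1 and Zhx3 the transcript counts added up to whole numbers in all 6 libraries (within 0.03), although most single rows were fractional. For Homez the sums were 375.82, 377.42 and 386.70 in KO 1 to 3 and 541.33, 295.91 and 459.76 in WT 1 to 3, whole in 0 of 6. Sums were whole in every library for 61.1% of the 18614 genes. Homez was thus the only member without whole sums, and the reason was not tested.

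Other genes of the pathway were read from lists that were chosen with earlier results of these data known. Of the 10 other genes of the zinc finger homeobox class, 2 were higher and 8 lower in KO-labelled libraries, with a median log2 fold change of -0.12 beside 0.02 over all genes. None was called by edgeR or DESeq2, and 1 of 10 had an unadjusted edgeR p under 0.05, near the 9.07% of all genes. That gene was Zfhx4, a very large protein with many homeodomains. It was at 14.4, 13.6 and 22.3 CPM in KO 1 to 3, against 33.7, 24.1 and 28.5 CPM in WT 1 to 3. The groups did not overlap, as for 8.74% of all genes in that direction, and the log2 fold change was -0.78 (SE 0.22, edgeR adjusted p = 0.371). Zeb2, a repressor of E-cadherin, had a log2 fold change of -0.35 (SE 0.27), and Adnp, a chromatin factor, -0.15 (SE 0.12).

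Among 11 binding partners of Zhx proteins and regulators of ZHX2 protein, 7 were higher and 4 lower, with a median log2 fold change of 0.03. None was called by edgeR or DESeq2, and 1 of 11 had an unadjusted edgeR p under 0.05, near the 9.07% of all genes. It was Egln2, one of the prolyl hydroxylases that act upstream of VHL. Egln2 was at 78.9, 80.4 and 70.3 CPM in KO 1 to 3, against 61.4, 60.3 and 66.5 CPM in WT 1 to 3. The groups did not overlap, as for 8% of all genes in that direction (log2 fold change 0.29, SE 0.10, edgeR adjusted p = 0.469). Vhl itself was at 45.9 ± 6.88 CPM in KO-labelled and 41.6 ± 5.39 CPM in WT libraries (SD, n = 3 each). Dnmt3b, a DNA methyltransferase that binds ZHX1, was at 0.875 ± 0.224 CPM in KO-labelled and 1.11 ± 0.357 CPM in WT libraries. Of the NF-Y subunits, Nfya had a log2 fold change of -0.08 (SE 0.19), Nfyb 0.03 (SE 0.17) and Nfyc 0.02 (SE 0.12). Efnb1, the ephrin-B1 gene, had -0.05 (SE 0.16).

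A liver list held 5 genes described as under Zhx2 control in mouse liver (Afp, H19, Gpc3, Lpl and Elovl3) and Zbtb20, which acts beside Zhx2 as a repressor of Afp. Afp, H19 and Elovl3 were not among the genes tested. The 3 tested had negative log2 fold changes, none of which was called by edgeR or DESeq2. Gpc3, a glypican of the cell surface, was at 9.78, 18.6 and 19.1 CPM in KO 1 to 3, against 27.6, 4.68 and 18.8 CPM in WT 1 to 3. Lpl, lipoprotein lipase, had a log2 fold change of -0.46 (SE 0.82), and Zbtb20 -0.17 (SE 0.22).

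**Figure D4:**
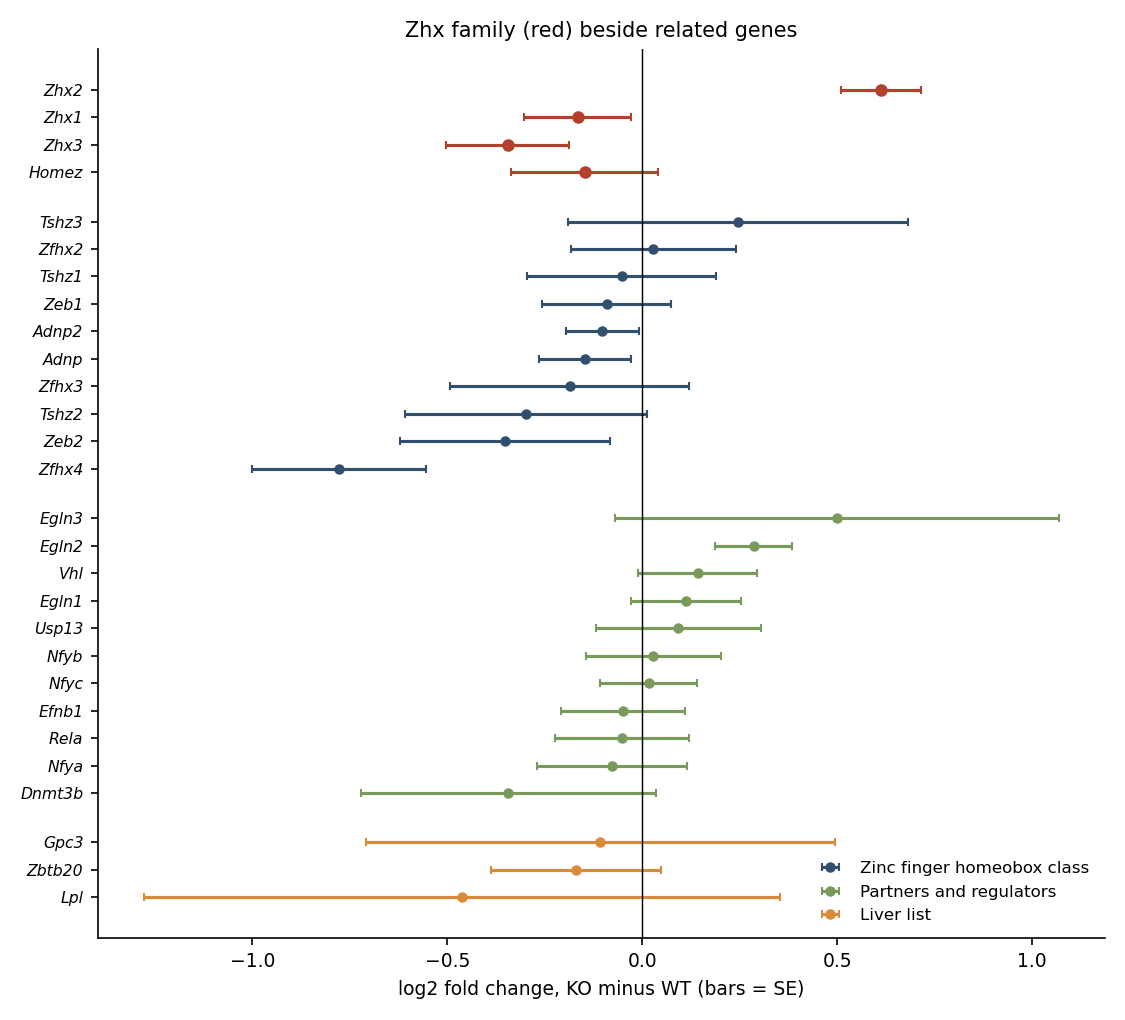
Log2 fold change, KO-labelled minus WT, with SE bars (x axis) for the 4 members in red and for 3 gene lists (y axis, one gene per line). Zhx2 at 0.61 has the highest value of the genes drawn and Zfhx4 at -0.78 the lowest, and no gene drawn passed in edgeR.

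Zhx2 and Zhx1 are near neighbours on chromosome 15, and the genes beside each member were examined as well. Of 18 tested, 6 were higher and 12 lower in KO-labelled libraries (median log2 fold change -0.10). EdgeR called none, with 2 at an unadjusted p under 0.05, beside 9.07% of all genes. DESeq2 called 1, Sntb1, where it called 2.06% of all genes. Groups lay apart with KO-labelled above WT for 1 and below for 3, beside 8% and 8.74% of all genes. The gene 9130401M01Rik, which lies between Zhx2 and Zhx1 at chr15:58022270-58034294, was at 25.3, 24.7 and 25.0 CPM in KO 1 to 3, against 15.7, 19.7 and 19.6 CPM in WT 1 to 3. The groups did not overlap (log2 fold change 0.45, SE 0.12, edgeR adjusted p = 0.331). Tbc1d31, also between them, was at 8.54, 8.87 and 10.3 CPM in KO 1 to 3, against 11.6, 13.3 and 10.7 CPM in WT 1 to 3, again with no overlap and in the other direction (log2 fold change -0.36, SE 0.15, edgeR adjusted p = 0.551). Derl1, the nearest gene after Zhx2, had -0.14. Sntb1, a syntrophin gene before Zhx2, was at 3.18, 2.42 and 5.52 CPM in KO 1 to 3, against 10.9, 11.9 and 8.64 CPM in WT 1 to 3 (log2 fold change -1.50, SE 0.32, edgeR adjusted p = 0.215, DESeq2 adjusted p = 0.00214). Sntb1 is not adjacent to Zhx2. It ends at chr15:55907302 and Zhx2 starts at chr15:57694665, with Has2, which was not tested, between them.

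The genes whose levels followed each member most closely over the 6 libraries are given as a description, since all values come from the same libraries. Among 12297 other genes with a mean of at least 5 CPM, Pearson's r of log2 CPM with Zhx2 was highest for Hars (0.988), Chmp4b (0.985) and Acbd6 (0.984). These moved by less than Zhx2, with log2 fold changes of 0.13, 0.16 and 0.26. Zhx1 was followed by Rhoq (0.995), Plagl2 (0.993) and Epha4 (0.983). Zhx3 was followed by Apc (0.997), Dcp1a (0.991) and Kmt2c (0.991), and Homez by Eps8 (0.993), Slc26a11 (0.989) and Sik1 (0.988). Such high values were not particular to the genes named. Genes with r above 0.95 numbered 29 for Zhx2, 35 for Zhx1, 89 for Zhx3 and 60 for Homez. Between members, r was -0.52 for Zhx2 and Zhx1, -0.72 for Zhx2 and Zhx3 and 0.73 for Zhx1 and Zhx3. For Homez it was -0.29 with Zhx2, -0.44 with Zhx1 and -0.03 with Zhx3.

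Summed levels of cell type markers differed between the libraries. In bulk RNA, fewer cells of a type and less RNA per cell cannot be told apart. All 15 choroid plexus markers were lower in KO-labelled libraries, with a summed level of 61.3 to 239 CPM in KO-labelled and 3698 to 17361 CPM in WT libraries. All 9 ependymal and motile cilium markers were lower too, at 86.8 to 129 CPM in KO-labelled and 181 to 264 CPM in WT libraries. All 8 microglia markers had positive log2 fold changes, at 509 to 612 CPM in KO-labelled and 409 to 507 CPM in WT libraries. The 16 markers of SVZ stem cells and neuroblasts were present in every library, at 1832 to 1992 CPM in KO-labelled and 1334 to 2094 CPM in WT libraries. All 8 striatal neuron markers had positive log2 fold changes (median 0.31, beside 0.29 for microglia), and their sum spread widely among WT libraries, at 3102 to 4084 CPM in KO-labelled and 467 to 6659 CPM in WT libraries. All 5 blood markers had positive log2 fold changes too (median 0.40), at 278 to 389 CPM in KO-labelled and 170 to 307 CPM in WT libraries. Of 6 oligodendrocyte markers, 1 was higher and 5 were lower. Their sum was 18629, 11079 and 8066 CPM in KO 1 to 3, against 13485, 13354 and 13247 CPM in WT 1 to 3. KO 1 thus lay above every WT library in this sum, and KO 2 and KO 3 below. Of 6 endothelial markers, 3 were higher and 3 lower, at 189 to 227 CPM in KO-labelled and 183 to 244 CPM in WT libraries. No marker was at 0 in all libraries.

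Among WT libraries the choroid plexus sum was 17361, 12466 and 3698 CPM in WT 1 to 3 and the striatal sum 467, 6659 and 1941 CPM, while Zhx2 was at 39.8, 40.5 and 38.2 CPM. Zhx2 differed little among the WT libraries, and these sums differed many times over. The oligodendrocyte sum also differed little among WT libraries, at 13247 to 13485 CPM. It differed more among KO-labelled libraries, at 8066 to 18629 CPM, with KO 1 highest as for Zhx2. The WT libraries do not reach the choroid plexus sums of the KO-labelled libraries, 61.3 to 239 CPM. Homez was lowest in WT 2, the library with the highest striatal sum. The part of these marker differences in the difference of Zhx2 between groups was not tested.

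**Figure D5:**
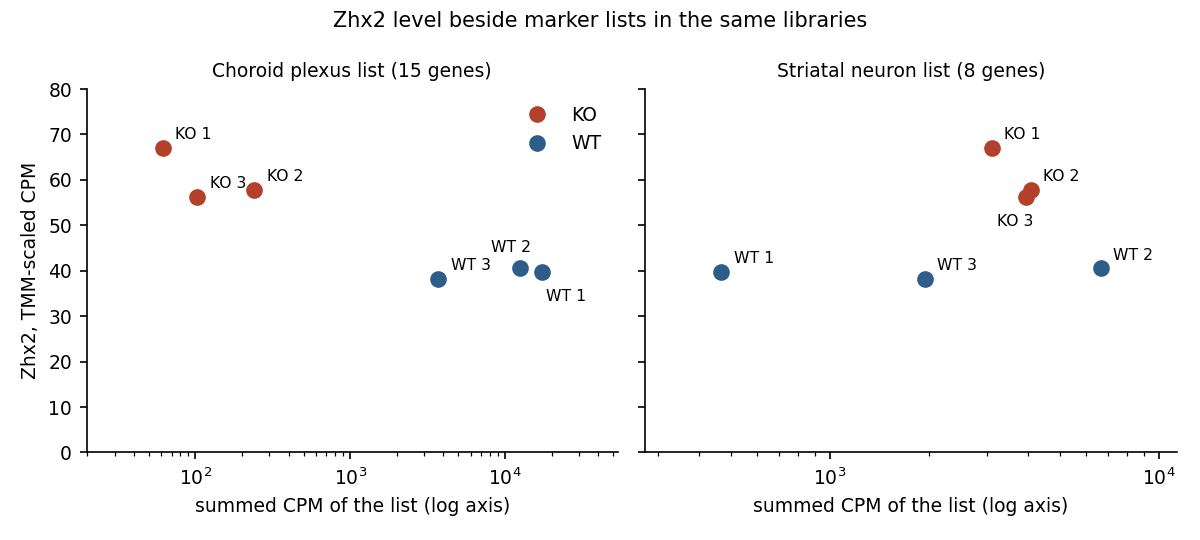
TMM-scaled CPM of Zhx2 (y axis, from 0) beside the summed CPM of the choroid plexus list and of the striatal neuron list (x axes, log scale) in each KO-labelled and WT library. The WT libraries lie at 38.2 to 40.5 CPM of Zhx2. The KO-labelled libraries lie above them in Zhx2 and below them in the choroid plexus sum.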

How the data were processed

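Bulk RNA-seq of 6 SVZ libraries, 3 KO-labelled and 3 WT, was read from a single deposited table with estimated counts and FPKM per RefSeq transcript. The estimated counts are the authors' deposited values, per the file headers a read count per transcript, and need not be whole. The FPKM values are also as deposited by the authors, per the file headers. The submitters' processing notes name mm10 and limma 3.40.6; aligner, counter and annotation: not given in the sources used here. The number of per-sample columns left unused was 0.

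Counts were summed per gene and rounded to whole numbers. Genes and transcripts passing edgeR's filterByExpr (minimum count 10) were tested with edgeR 4.0.16 (TMM, robust quasi-likelihood), with Benjamini-Hochberg adjustment over 15126 genes or 38616 transcripts. The SE given with edgeR values was derived from its F test, as the absolute log2 fold change divided by the square root of F. DESeq2 1.42.0 and limma-voom (limma 3.58.1) were alternatives, under R 4.3.3. Single values were compared with exact two-sided permutation tests over libraries (scipy 1.17.1). Shares carry 95% Wilson intervals and limits of 3 counts for a count of 0, both for counting error only. The fits were tested on simulated counts. Named are the members, up to 3 genes of each list with the smallest edgeR p, and the 3 genes most like each member. Other list genes named (Nfya, Nfyb, Nfyc, Efnb1, Derl1) were chosen after their values were seen. Members and lists were chosen with earlier results of these data known.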

Additional observations from a re-analysis of the deposited data

How the results depend on the processing

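Zhx2 kept a positive log2 fold change, and Zhx1 and Zhx3 negative ones, under every scaling, filter, tool and left-out library tried. DESeq2 called Zhx2 at 0.60, and, in a check chosen after seeing the data, at 0.51, 0.63 and 0.65 without KO 1, 2 and 3 in turn and at 0.62, 0.62 and 0.58 without WT 1, 2 and 3 in turn; the gene missed the threshold under the other alternatives. Genes called numbered 0 in edgeR and 0 to 137 with a library left out (137 without WT 3), against 311 in DESeq2, which called 275, 257 and 318 without KO 1, 2 and 3 in turn and 139, 348 and 451 without WT 1, 2 and 3 in turn. Transcripts called numbered 0 in edgeR, also with a library left out, against 875 in DESeq2. Homez ran from -0.34 to 0.00032 in DESeq2 with a library left out, turning sign without WT 1. The leading-transcript share of Zhx1 differed by -1.42 percentage points, and by -3.17 to 1.68 with a library left out. That of Homez differed by -2.20 points, by -5.85 to 1.55 with a library left out (0.192 without WT 3) and by 5.09 with KO 1 alone. The cause of these changes was not tested.

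With the replicate number as a replicate block, the log2 fold change of Zhx2 was 0.61 (edgeR adjusted p = 0.322), and 0 genes and 0 transcripts were called. The labels do not say that the numbers pair libraries, and they were not taken to do so. Same-numbered libraries deviated from their group means with correlations of -0.162, -0.0674 and -0.0368, and differently numbered ones with -0.149 to 0.182. With 3 libraries a group these values cannot decide whether the numbers pair libraries. With 3 libraries a group, no exact permutation p can go below 0.1.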
